A study of Kandelia obovata with 24 samples.

Results

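DN3958_c0_g1 is a unigene of *Kandelia obovata*, a mangrove tree, that is annotated as ferrochelatase and called ferrochelatase below. It is 1 of the 33344 unigenes in the deposited expression table. It was selected from a list of hub unigenes that the study drew from a co-expression network of these same libraries, so its values over the 24 libraries are what chose it. They are therefore given as a description, with no test. The list annotates the unigene with ferrochelatase activity, heme biosynthesis and the pathway of porphyrin and chlorophyll metabolism. As locations it gives the mitochondrion and integral component of membrane. It places the unigene in a module named MEturquoise. No other unigene of the Trinity cluster DN3958 was in the table, so no second assembled form of it can be followed. Whether another cluster holds a ferrochelatase could not be checked, because the table pairs no identifier with a gene name.

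Ferrochelatase inserts ferrous iron into protoporphyrin IX, the last step of heme synthesis. Protoporphyrin IX stands at a branch point in plants, where magnesium chelatase takes it towards chlorophyll and ferrochelatase takes it towards heme. Heme is the cofactor of catalase, of the class of peroxidases assayed in leaves as POD, of cytochromes, and of the NADPH oxidases that release reactive oxygen species. In *Arabidopsis* one ferrochelatase gene serves photosynthetic tissue and another is expressed more widely and responds to stress. The annotation names the mitochondrion as a location, but does not say which of these *Arabidopsis* genes the mangrove unigene resembles.

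During a natural frost, leaves of field-grown seedlings were taken at 4 air temperatures in turn, 10.2, -4.1, -5.3 and 9.7 ℃, from seedlings labelled CK (no ABA) and from seedlings labelled ABA-100 (a foliar spray of 100 mg per L abscisic acid), with 3 libraries in each of the 8 groups. Abscisic acid (ABA) is the plant hormone of drought and cold responses. By the study's account the spray was given after the first sampling, at 10.2 ℃. The same seedlings were sampled again at later stages, and the labels give the genotype as wild type for CK and as "experiment type" for ABA-100, with no further explanation. The library codes, which the sources do not explain, begin with A0, A4, B0 and B4 in the CK groups and with C0, C4, D0 and D4 in the ABA-100 groups, in the order of the stages. They could also be read as a letter for the stage and a digit for the ABA level, and under that reading most of the labels would name another stage or treatment than the leaves had. The sources do not state which reading holds, and shares of unigenes that bear on it are given below with the differences between the labels. Groups are written here as the deposited libraries are labelled, so every stage, treatment and direction below holds for the labels alone. The tissue could not be checked against leaf markers, because the table pairs no identifier with a gene name.

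Values are TPM, a measure of transcript abundance that corrects for transcript length and gives each library the same total. Between 25523 and 27061 unigenes were above 0 in a library, and the 10 most abundant unigenes took 14.9% to 21.4% of the total. Median-of-ratios factors, which compare libraries by their typical unigene, ran from 0.899 to 1.10. They were lowest in libraries labelled ABA-100 (-5.3 ℃) and ABA-100 (10.2 ℃). The depth behind the values is unknown, as the files hold no counts. TPM is a relative measure of bulk leaf RNA, in which fewer cells of a type and less RNA per cell cannot be told apart.

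Ferrochelatase was detected in every library, from 9.47 to 76.64 TPM, with a median of 14.1 TPM over the 24. The highest group was ABA-100 (-4.1 ℃). Its libraries had 73.8, 76.64 and 71.16 TPM, a mean of 73.9 ± 2.74 TPM (SD, n = 3). The lowest of these was 1.86 times the highest of the other 21 libraries, so the group stood clear of all others.

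The next level was that of ABA-100 (9.7 ℃), with 32.05, 37.36 and 38.31 TPM and a mean of 35.9 ± 3.37 TPM (SD, n = 3). Replicate 1 was the low library there, at 89.3% of the group mean. It was also the library with the most unigenes above 0 and with the highest median-of-ratios factor, 1.10, and their part in its low value was not tested. In ABA-100 (10.2 ℃) the libraries had 24.8, 26.23 and 26.15 TPM, and the mean was 25.7 ± 0.804 TPM (SD, n = 3). These 3 groups held every library above 20 TPM.

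The fourth group with an ABA-100 label did not share this level. ABA-100 (-5.3 ℃) gave 13.88, 13.16 and 13.86 TPM, a mean of 13.6 ± 0.410 TPM (SD, n = 3), which lay among the CK groups. It was 18.5% of the mean at -4.1 ℃ under the same label.

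Among the CK groups the highest was CK (-5.3 ℃), with 14.3, 14.56 and 19.03 TPM and a mean of 15.96 ± 2.66 TPM (SD, n = 3). Its replicate 3 stood apart at 119% of the group mean, while the other replicates differed by little. CK (-4.1 ℃) had 11.94, 10.98 and 13.14 TPM, a mean of 12.02 ± 1.08 TPM (SD, n = 3). The libraries of CK (9.7 ℃) were nearly identical at 11.46, 11.45 and 11.2 TPM, with a mean of 11.4 ± 0.147 TPM (SD, n = 3). The lowest group was CK (10.2 ℃), with 9.47, 10.07 and 10.65 TPM and a mean of 10.1 ± 0.590 TPM (SD, n = 3). From the lowest to the highest group the mean differed 7.34-fold.

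**Figure D1:**
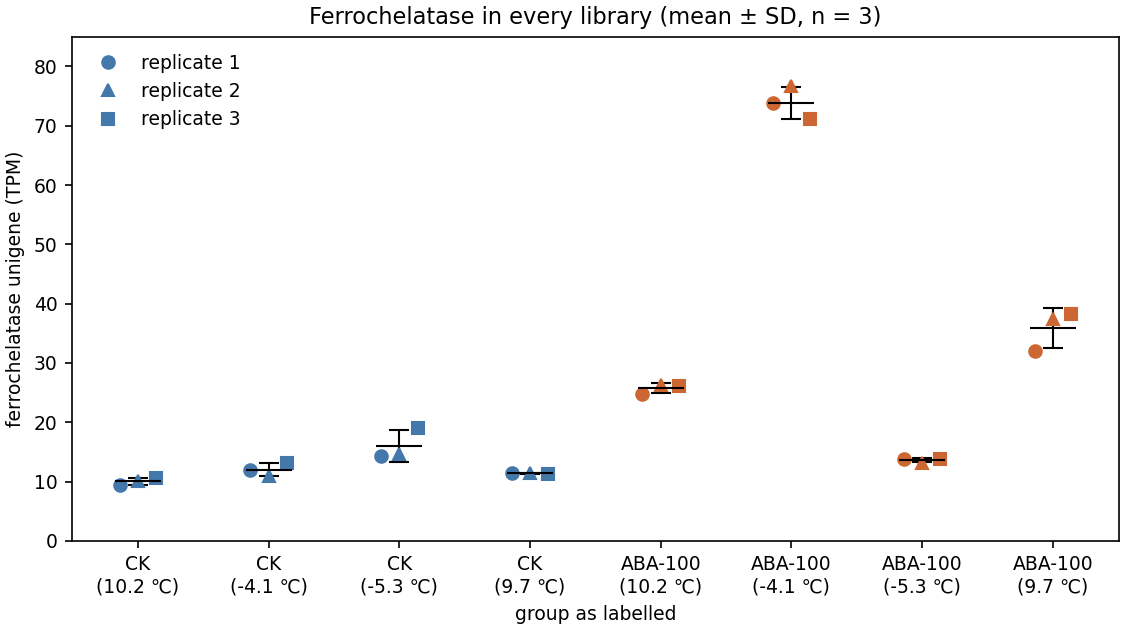
Ferrochelatase in every library, in TPM on an axis from 0, by group as labelled. Symbols are replicates (blue CK, orange ABA-100), and bars give the mean ± SD of 3 libraries. The libraries labelled ABA-100 (-4.1 ℃) lie between 71.16 and 76.64 TPM, and those labelled ABA-100 (-5.3 ℃) lie between 13.16 and 13.88 TPM, close to the CK groups.

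In order of their means the groups ran CK (10.2 ℃), CK (9.7 ℃), CK (-4.1 ℃), ABA-100 (-5.3 ℃), CK (-5.3 ℃), ABA-100 (10.2 ℃), ABA-100 (9.7 ℃) and ABA-100 (-4.1 ℃). Neighbours were told apart only where every library of one lay beyond every library of the other. CK (10.2 ℃) lay 0.55 TPM below CK (9.7 ℃), close to its own SD. CK (9.7 ℃) and CK (-4.1 ℃) overlapped and cannot be ordered. CK (-4.1 ℃) and ABA-100 (-5.3 ℃) were separated by a gap of 0.02 TPM, far below the SD of either group. ABA-100 (-5.3 ℃) and CK (-5.3 ℃) were separated by 0.42 TPM, but overlapped once TPM was rescaled by the median-of-ratios factors. The upper steps were wider. The gap was 5.77 TPM below ABA-100 (10.2 ℃), 5.82 TPM below ABA-100 (9.7 ℃) and 32.9 TPM below ABA-100 (-4.1 ℃). With quantile normalization the libraries of ABA-100 (10.2 ℃) and ABA-100 (9.7 ℃) overlapped.

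TPM can be compared between genes, which places the unigene within each leaf transcriptome. In CK (10.2 ℃) it was above 60.4% to 62.3% of the unigenes detected in a library, a middling level. In ABA-100 (-4.1 ℃) it was above 93.0% to 93.6%, and its best rank in a library was 1664 from the top. In ABA-100 (9.7 ℃) it was above 81.5% to 85.5%, in ABA-100 (10.2 ℃) above 79.3% to 80.6%, and in ABA-100 (-5.3 ℃) above 67.2% to 68.8%.

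Replicates of ferrochelatase lay close together beside the differences between groups. On the scale of log2(TPM + 1), 99.0% of its variance over the 24 libraries lay between the 8 groups and 0.952% within them. Over the 21523 unigenes that reached 1 TPM in 3 or more libraries, the median share between groups was 64.0%, and 34 unigenes had a larger share than ferrochelatase. Of its variance, 51.5% lay between the 2 labels, 18.0% between the 4 stages and 29.6% in the part by which the labels differed from stage to stage. Its CV within a group ran from 1.30% in CK (9.7 ℃) to 16.7% in CK (-5.3 ℃), with a median of 4.79% over the groups. The 9996 unigenes with a mean of at least 10 TPM had a median of 5.54%, and 3692 of them had a lower median CV than ferrochelatase. Its replicates were thus about as close together as those of a typical unigene at such levels.

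All 28 pairs of groups were compared by the difference of mean log2(TPM + 1), which somewhat understates the change of a low unigene. The standard error was 0.09 for each pair, since all 24 libraries share 1 estimate of the spread. The groups differed in spread, so this value is too small for some pairs and too large for others. From the spread of its own libraries, the standard error ran from 0.026 for CK (9.7 ℃) and ABA-100 (-5.3 ℃) to 0.148 for CK (-5.3 ℃) and ABA-100 (9.7 ℃). It was 0.128 for the labels at -5.3 ℃. Both kinds of standard error take the libraries as independent. By the study's account the same seedlings were sampled at successive stages, and for pairs under the same label that is left out. A pair is called where its libraries did not overlap and the difference exceeded 1 in either direction. Ferrochelatase met both conditions in 15 of the 28 pairs and failed to overlap in 27. Percentages beside the pairs below are the share of the 21523 unigenes that were called in that pair. As the values used to choose the unigene are the ones compared, nothing is read from its count of calls. By overlap alone, 15.6% to 50.5% of unigenes were separated in a pair.

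The difference between the labels depended on the stage in size. An opposite sign at -5.3 ℃ was small, and the libraries overlapped there with other scalings, as given below. At 10.2 ℃ ferrochelatase was 2.56-fold higher under the ABA-100 label, a log2 difference of 1.27 (4.99% of unigenes called). At -4.1 ℃ it was 6.15-fold higher, a log2 difference of 2.53 (6.31% called), and 191 other unigenes were higher by at least as much. As a difference at a freezing stage may have been a condition of choice, nothing is read from that rank. At -5.3 ℃ the sign was opposite, with a log2 difference of -0.20 (1.97% called). At 9.7 ℃ the libraries labelled ABA-100 were again higher, by 3.16-fold and 1.57 on the log2 scale (4.36% called). The difference at 10.2 ℃ would precede the spray if the labels hold, and would not if the codes give stage and ABA level. No difference between the labels is therefore assigned to the spray. The paper's own test gave fewer genes responding to ABA at -4.1 ℃ than at -5.3 ℃, the reverse of the shares called by label. Read as stage and ABA level, the codes would pair CK (-5.3 ℃) with CK (9.7 ℃) at -4.1 ℃ (1.46% called). At -5.3 ℃ they would pair ABA-100 (10.2 ℃) with ABA-100 (-4.1 ℃) (3.66% called). At 10.2 ℃ they would pair CK (10.2 ℃) with CK (-4.1 ℃) (1.08% called). At 9.7 ℃ they would pair ABA-100 (-5.3 ℃) with ABA-100 (9.7 ℃) (3.96% called). Within CK, the paper's counts against 10.2 ℃ were lowest at -4.1 ℃ and highest at -5.3 ℃. The shares at -4.1, 9.7 and -5.3 ℃ rose in that order by label (1.08%, 1.55% and 2.02%). Read by code they rose as well (2.02%, 3.47% and 4.99%). The paper's test and gene set differ from those used here, and the reading was not tested.

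The small difference at -5.3 ℃ moved with other values. The median unigene was itself lower by 0.15 on the log2 scale in ABA-100 (-5.3 ℃) than in CK (-5.3 ℃). With median-of-ratios scaling the difference of ferrochelatase was -0.03, and with quantile normalization -0.01, and in both cases the libraries overlapped. It was -0.08 without replicate 3 of CK (-5.3 ℃). At 10.2 ℃ the median unigene was lower by 0.14 under the ABA-100 label, and the difference of ferrochelatase was 1.44 with median-of-ratios scaling. The medians at -4.1 and 9.7 ℃ were within 0.1 of 0.

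**Figure D2:**
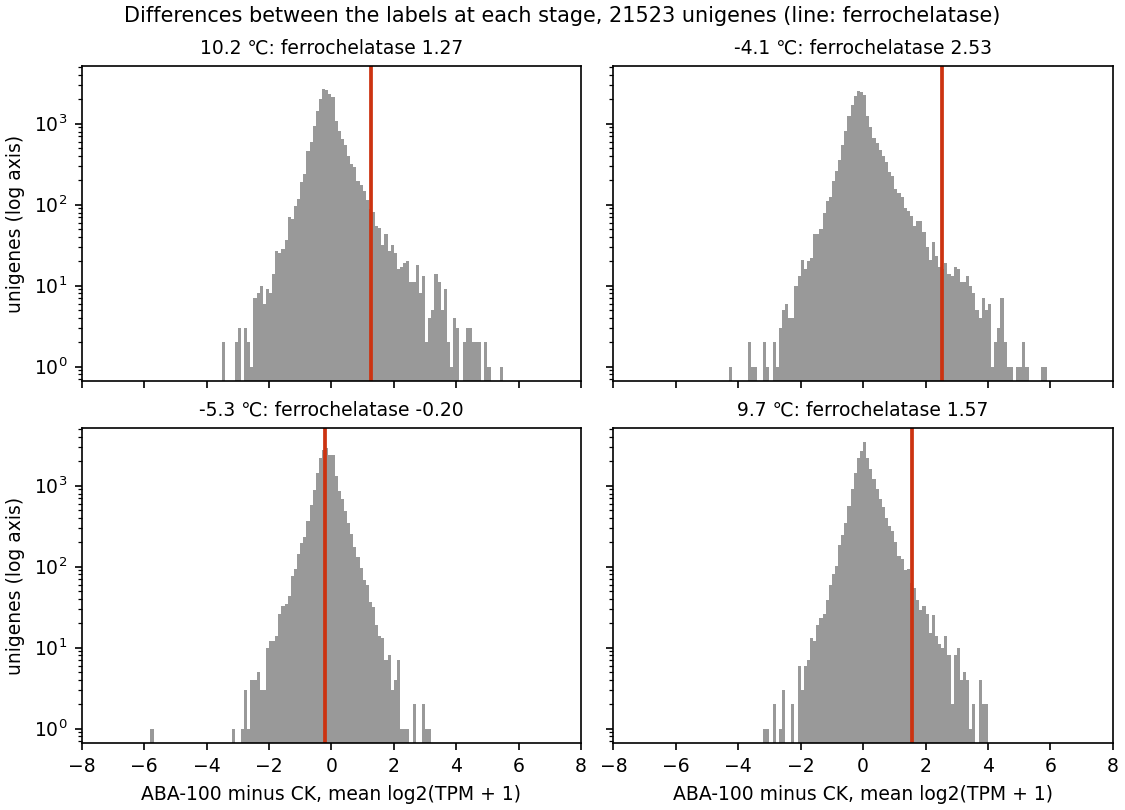
ABA-100 minus CK at each stage as the difference of mean log2(TPM + 1), for 21523 unigenes in bins of 0.1, with the number of unigenes on a log axis and ferrochelatase as a line. Ferrochelatase lies in the upper tail at 10.2, -4.1 and 9.7 ℃ (1.27, 2.53 and 1.57) and in the bulk at -5.3 ℃ (-0.20).

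Within CK the stages differed by less than 1 on the log2 scale throughout. Against CK (10.2 ℃), ferrochelatase was higher by 0.23 at -4.1 ℃ (1.08% of unigenes called), by 0.61 at -5.3 ℃ (2.02% called) and by 0.16 at 9.7 ℃ (1.55% called). The level at -5.3 ℃ was 1.59 times that at 10.2 ℃, the widest step under this label. From -4.1 to -5.3 ℃ the difference was 0.37 (1.7% called), from -5.3 to 9.7 ℃ it was -0.44 (1.46% called), and from -4.1 to 9.7 ℃ it was -0.07 (1.46% called), the only pair of the 28 whose libraries overlapped. CK thus had a shallow peak at the coldest stage, and that peak leaned on replicate 3. Without that library the step from -4.1 to -5.3 ℃ was 0.25 and the step from -5.3 to 9.7 ℃ was -0.32.

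Within ABA-100 the stages differed by more, and the peak was at the other freezing stage. From 10.2 to -4.1 ℃ ferrochelatase was 2.87-fold higher, a log2 difference of 1.49 (3.66% of unigenes called). From -4.1 to -5.3 ℃ it was lower by 2.35, a log2 difference of -2.35 (4.4% called), and 125 other unigenes were lower by at least as much. From -5.3 to 9.7 ℃ it was 2.63-fold higher, a log2 difference of 1.33 (3.96% called). The level therefore alternated between successive stages under this label. At -5.3 ℃ it was below the level labelled 10.2 ℃ by a log2 difference of -0.87 (3.55% called). At 9.7 ℃ it was above that level by 0.46 (2.91% called) and below the level at -4.1 ℃ by a log2 difference of -1.02 (2.81% called). The median unigene was itself 0.16 higher in ABA-100 (9.7 ℃) than in ABA-100 (10.2 ℃), and the difference of ferrochelatase in that pair was 0.27 with median-of-ratios scaling. The difference between 9.7 and -4.1 ℃ was -0.95 without replicate 1 of ABA-100 (9.7 ℃) and under 1 in size without replicate 2 of ABA-100 (-4.1 ℃) as well.

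In the other 12 pairs both the label and the stage differ, so they are given as values alone. ABA-100 (-4.1 ℃) exceeded CK (10.2 ℃) by 2.76 (7.02% of unigenes called), CK (-5.3 ℃) by 2.15 (4.79% called) and CK (9.7 ℃) by 2.60 (5.17% called). ABA-100 (9.7 ℃) exceeded CK (10.2 ℃) by 1.74 (4.78% called), CK (-4.1 ℃) by 1.502 (4.94% called) and CK (-5.3 ℃) by 1.13 (3.76% called). ABA-100 (10.2 ℃) exceeded CK (-4.1 ℃) by 1.04 (4.89% called), CK (-5.3 ℃) by 0.67 (4.9% called) and CK (9.7 ℃) by 1.11 (4.04% called). The difference of 1.04 was 0.98 without replicate 2 of CK (-4.1 ℃). ABA-100 (-5.3 ℃) exceeded CK (10.2 ℃) by 0.40 (3.47% called), CK (-4.1 ℃) by 0.17 (3.06% called) and CK (9.7 ℃) by 0.24 (1.79% called). The contrast between these sets was plain, since the first 3 ABA-100 groups lay above every CK group, and ABA-100 (-5.3 ℃) differed from the CK groups by 0.40 or less.

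**Figure D3:**
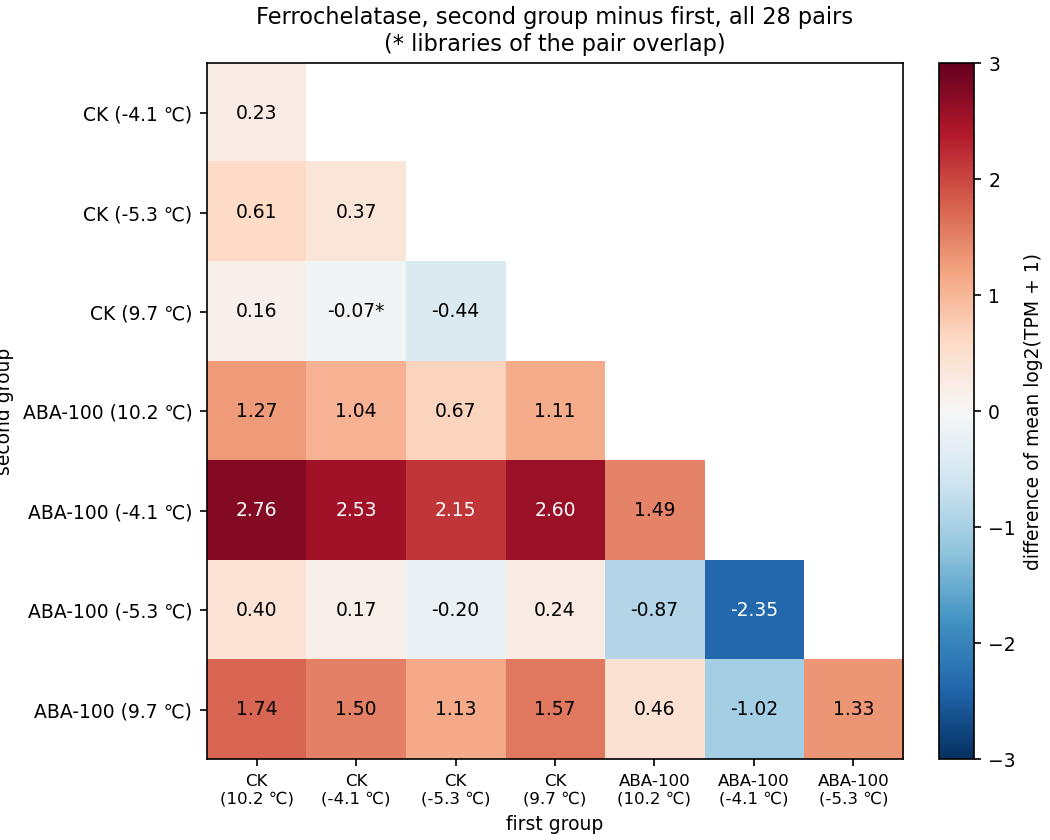
Differences of mean log2(TPM + 1) of ferrochelatase for all 28 pairs, the group of the row minus the group of the column, with a star where libraries overlap. The row of ABA-100 (-4.1 ℃) holds 2.15 to 2.76 against the CK groups, and the row of ABA-100 (-5.3 ℃) holds -0.20 to 0.40 against them.

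Some other unigenes shared this profile. Of the 21523, 2720 (12.6%) had their highest group mean in ABA-100 (-4.1 ℃). Of these, 250 others exceeded the second highest group by at least as much as ferrochelatase, which did so 2.06-fold. The same 3 highest groups in the same order were found in 454 other unigenes (2.11%), and 8 others had the same order of all 8 groups.

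Likeness of pattern was measured by Pearson's r of log2(TPM + 1) over the 24 libraries. These points share groups, seedlings and the scaling to a fixed total, so r is a description and says nothing of shared function or control. Of 21522 other unigenes, 368 (1.71%) had an r of at least 0.9 and 4 had an r of -0.9 or less. The unigene was picked as a hub by correlation over these libraries, so a large number of close unigenes was built into the choice. At a looser limit the counts were nearly equal, with 2310 unigenes at 0.5 or more and 2307 at -0.5 or less. Of the 368, 361 peaked in ABA-100 (-4.1 ℃), and 176 still had an r of at least 0.9 when the 3 libraries of that group were left out.

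The most similar unigene was DN4369_c0_g1, with an r of 0.988. Its mean was 3.74 TPM in CK (-4.1 ℃) and 21.9 TPM in ABA-100 (-4.1 ℃), and 4.28 TPM in ABA-100 (-5.3 ℃). DN5395_c0_g1 followed with an r of 0.987, at 34.5 TPM in CK (-4.1 ℃) and 128 TPM in ABA-100 (-4.1 ℃). Neither is annotated in the sources used here. The third was DN477_c0_g1, a protein serine/threonine phosphatase, an enzyme that removes phosphate from proteins, with an r of 0.986. The fourth was DN2948_c0_g1, annotated to the nucleus, with an r of 0.984. DN3221_c0_g1, a protein serine/threonine kinase, was sixth with an r of 0.983. All 3 annotated unigenes are hubs of the same MEturquoise module, and hubs were picked by correlation over these libraries, so their closeness to ferrochelatase was built into the choice.

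The other 5 of the 10 most similar unigenes have no annotation here. DN12292_c0_g1 had an r of 0.984 with a narrow range, 2.27-fold from its lowest to its highest group. DN1884_c0_g1 had an r of 0.980 with the widest range of the 10, 12.6-fold. DN349_c0_g2, DN4069_c0_g1 and DN2461_c0_g2 had r of 0.980, 0.979 and 0.979. Every one of the 10 peaked in ABA-100 (-4.1 ℃). Without the libraries of that group, r over the remaining 21 libraries was 0.947 to 0.973.

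The remaining MEturquoise hub was DN8005_c0_g2, of sphingolipid metabolism, which supplies membrane lipids. Its r of 0.968 ranked 55 from the highest, and its mean was 3.96 TPM in CK (-4.1 ℃) and 39.0 TPM in ABA-100 (-4.1 ℃). Hubs of the MEbrown module showed no such likeness. Their r ran from -0.20 for DN5170_c1_g1, a DNA-binding regulator of transcription, to 0.06 for DN7864_c0_g1, an NAD(P)H oxidoreductase that the list puts in MAPK signaling. DN7698_c0_g1, of the plasma membrane, had an r of -0.19, and DN8109_c0_g1, a membrane component, had one of -0.16. Hubs of the MEgrey module were mixed. DN3196_c0_g1, a MAP kinase kinase kinase, had an r of 0.15. Phenylalanine ammonia-lyase (DN13229_c0_g1), the entry enzyme of phenylpropanoid synthesis, had an r of -0.44, while DN1524_c0_g1 was among the most opposite unigenes.

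The 5 lowest r belonged to DN7592_c0_g1 (-0.944), DN1524_c0_g1 (-0.919), DN2897_c0_g1 (-0.918), DN3860_c1_g2 (-0.908) and DN6535_c0_g1 (-0.893). DN1524_c0_g1 is a zinc-binding regulator of transcription, and its mean was 20.8 TPM in CK (-4.1 ℃), 6.25 TPM in ABA-100 (-4.1 ℃) and 14.6 TPM in ABA-100 (-5.3 ℃). DN6535_c0_g1 was the most abundant of the 5, with 479 TPM in CK (-4.1 ℃) and 282 TPM in ABA-100 (-4.1 ℃). All 5 had their lowest group mean in ABA-100 (-4.1 ℃), and their ranges were narrower than that of ferrochelatase, 1.56-fold to 3.71-fold from the lowest to the highest group.

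**Figure D4:**
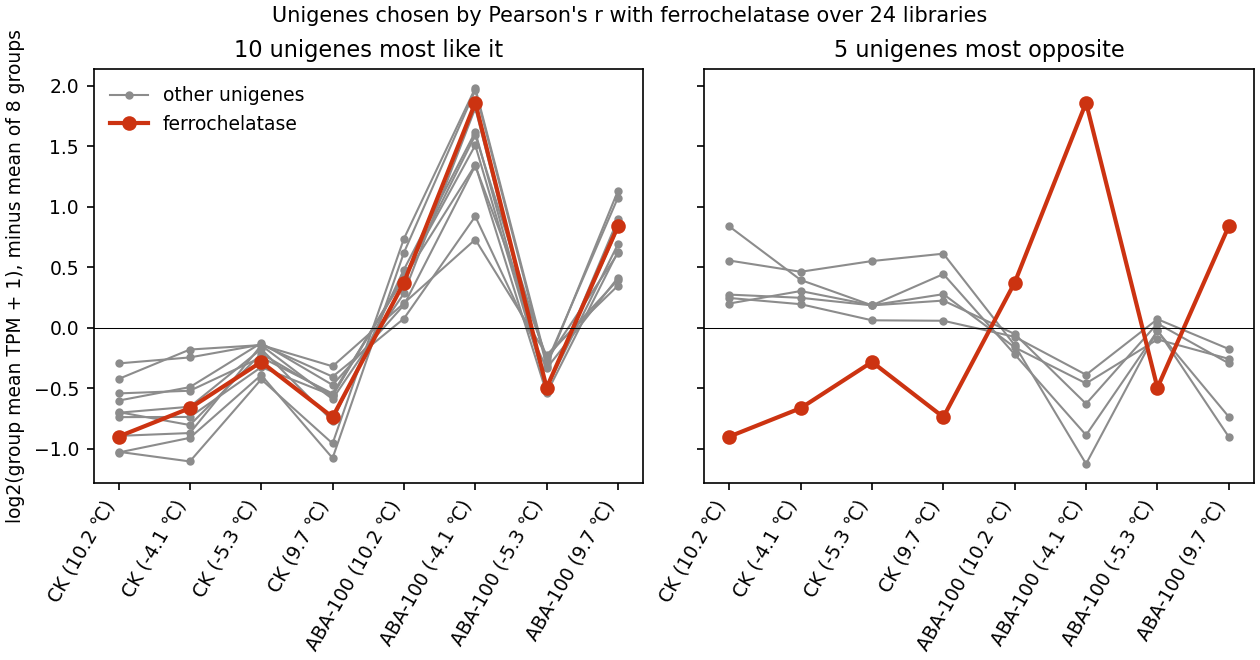
Profiles over the 8 groups as log2 of the group mean TPM plus 1, centred on the mean of the groups, for ferrochelatase (red) and for the 10 unigenes with the highest and the 5 with the lowest r (grey). The 10 share the peak in ABA-100 (-4.1 ℃) and the low level in ABA-100 (-5.3 ℃), and the 5 are lowest in ABA-100 (-4.1 ℃).

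Much of this likeness lies in the group means, so the deviations of single libraries from their group mean were compared as well. For ferrochelatase the largest deviations on the log2 scale were 0.25 in replicate 3 of CK (-5.3 ℃) and -0.16 in replicate 1 of ABA-100 (9.7 ℃). Over the 24 deviations, the 10 most similar unigenes had r with ferrochelatase from 0.19 for DN12292_c0_g1 to 0.79 for DN2461_c0_g2. Of the 368 unigenes with an r of at least 0.9 over the libraries, 317 (86.1%) had a positive r of deviations, with a median of 0.33. Over all 21522 unigenes 45.1% were positive, with a median of -0.03. The largest deviations weigh most in these r, so they lean on replicate 3 of CK (-5.3 ℃). They were not computed without that library, so likeness beyond the group means is not settled by them. Of the 5 most opposite unigenes, DN2897_c0_g1 alone had a negative r of deviations, -0.26, and the other 4 ran from 0.14 for DN7592_c0_g1 to 0.58 for DN1524_c0_g1.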

How the data were processed

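RNA-Seq was run on leaves in 24 libraries, 3 in each of 8 groups. Per the study's methods, reads were cleaned by the authors (SeqPrep, Sickle), Trinity built the unigenes de novo, and RSEM gave their abundance; tool versions are not given in the sources used here. The deposited values are TPM per unigene and library. The labels and the supplementary methods name different library kits, so the kit is not settled. Trinity can split or merge near-identical genes, so a unigene may hold reads of close copies. The test used by the authors needs read counts and was not repeated. The study names 3 biological replicates per group, and whether a replicate number marks a seedling is not given. Replicate numbers are those of the titles, and in 2 groups the code endings differ from them. Replicate 1 of ABA-100 (9.7 ℃) has the code D4_3, and replicates 2 and 3 have D4_3_1 and D4_3_2. Replicate 3 of CK (9.7 ℃) has B4_6_4.

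Each column was matched to its library by the deposited code, and all 24 were used. From the deposited TPM, log2(TPM + 1) was taken, and unigenes that reached 1 TPM in 3 or more libraries were kept. A linear model with 1 mean per group gave differences and standard errors. No p-value was computed, since DN3958_c0_g1 was chosen on these libraries. Named unigenes were ferrochelatase, the 10 highest and 5 lowest in Pearson's r with it, and the other 11 hubs of the study's list. The member and lists were chosen with earlier results of these data known. Calculations were checked on simulated data. Other pseudocounts, scalings, filters and sets of libraries were tried. Tools were Python 3.11.15, numpy 2.4.6, pandas 2.3.3 and matplotlib 3.10.9. No genome or sequence was used here.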

Additional observations from a re-analysis of the deposited data

Results flagged for a closer look

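The libraries labelled ABA-100 (-5.3 ℃) broke the order of the labels for ferrochelatase. At 10.2, -4.1 and 9.7 ℃ the ABA-100 libraries all lay above the CK libraries of that stage, and at -5.3 ℃ they all lay below. On the log2 scale the difference between the labels at -5.3 ℃ was -0.20, which departed by -1.48 from that at 10.2 ℃ and by -2.73 from that at -4.1 ℃. The difference at 9.7 ℃ departed from that at -5.3 ℃ by 1.78.

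The same values appear as steps between stages that went opposite ways under the labels, with no overlap of libraries in either. From 10.2 to -5.3 ℃ the step was 0.61 in CK and -0.87 in ABA-100, which differ by -1.48. From -4.1 to -5.3 ℃ it was 0.37 and -2.35, which differ by -2.73. From -5.3 to 9.7 ℃ it was -0.44 and 1.33, which differ by 1.78. These differences between differences were not tested. With median-of-ratios scaling or quantile normalization the libraries at -5.3 ℃ overlapped between the labels, while the steps named here kept their direction and did not overlap.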

How the results depend on the processing

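The 10 differences of ferrochelatase between the labels at each stage and between successive stages kept their direction in all 100 alternatives run. For most of these the outcome was fixed in advance, because the libraries of each pair did not overlap. Leaving out a library, the smaller pseudocount and the replicate block could not change the direction. Only median-of-ratios scaling and quantile normalization could have done so. With median-of-ratios scaling the log2 difference of ABA-100 against CK was 1.44 at 10.2 ℃, 2.64 at -4.1 ℃ and -0.028 at -5.3 ℃, and the step of ABA-100 from -5.3 to 9.7 ℃ was 1.17. With quantile normalization the differences between the labels were 1.41 at 10.2 ℃ and -0.0065 at -5.3 ℃, and the steps of ABA-100 were 1.35 to -4.1 ℃, -2.23 to -5.3 ℃ and 1.15 to 9.7 ℃. Both alternatives re-centre the typical unigene of each library, and the cause of the shifts was not tested. Leaving out 1 library in turn gave -0.271 to -0.077 for the labels at -5.3 ℃, 0.25 to 0.44 for CK from -4.1 to -5.3 ℃ and -0.51 to -0.32 for CK from -5.3 to 9.7 ℃, in each case nearest to 0 without replicate 3 of CK (-5.3 ℃). The count of pairs without overlap was 25 to 28 and that of pairs above 1 was 14 or 15. The 368 unigenes with an r of at least 0.9 were 301 to 402 without 1 library, 218 with Spearman's rho and 221 without the libraries labelled ABA-100 (-4.1 ℃). Libraries of the same replicate number had correlations of deviations over all unigenes from -0.10 to 0.28 (median 0.0019, 84 pairs). For libraries of different number and group they ran from -0.19 to 0.11 (median 0.00039, 168 pairs). Both sets include pairs across the labels, which as labelled share no seedling. The medians therefore cannot decide whether the numbers pair libraries, and the main differences used no pairing. With the replicate block the differences are the same by construction, 2.53 between the labels at -4.1 ℃, and the standard error was 0.08. As depth is unknown, no counting error can be given.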
